A study of Mus musculus with 16 samples.

Results

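The genes described here encode 9 transcriptional regulators of lipid and energy metabolism: the fatty acid receptors PPARα (Ppara), PPARδ (Ppard) and PPARγ (Pparg), the coactivators PGC-1α (Ppargc1a) and PGC-1β (Ppargc1b), the oxysterol receptors LXRβ (Nr1h2) and LXRα (Nr1h3), their common partner RXRα (Rxra), and the orphan receptor ERRα (Esrra). They were chosen by name, and all 9 were found in the annotation, among 21883 protein-coding genes of the mouse build GRCm38. For each, the peaks of 9 chromatin immunoprecipitation (ChIP-seq) lists that overlapped the gene or the 10 kb on either side of it were collected, which gave 320 of the 368675 listed peaks.

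PPARs and LXRs are nuclear receptors that bind DNA as heterodimers with an RXR and switch genes on when a fatty acid or oxysterol ligand exchanges corepressors for coactivators. PGC-1 proteins do not bind DNA themselves and are recruited by receptors such as ERRα and the PPARs to genes of mitochondrial respiration and fatty acid oxidation. In macrophages, PPARγ and PPARδ are known for lipid uptake and for the alternatively activated state, and LXRs for cholesterol efflux and for restraint of inflammatory genes. SIRT1, a deacetylase that uses NAD, is known to act on PGC-1α and LXR proteins, while EZH2, the catalytic subunit of Polycomb repressive complex, writes the repressive mark H3K27me3. H3K27ac, on the same lysine, marks active promoters and enhancers.

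The study used bone-marrow macrophages of adult C57BL/6 mice, differentiated for 5 days with M-CSF-conditioned medium, and the labels give 16 samples: 9 immunoprecipitations, each with a peak list, and 7 inputs. EZH2 was mapped in wild-type macrophages primed with LPS, a Toll-like receptor ligand, and then treated with nigericin, an ionophore used to trigger the NLRP3 inflammasome, and in untreated wild-type macrophages. p53, H3K27ac and H3K27me3 were mapped in untreated wild-type cells. SIRT1 was mapped in untreated Ezh2 knockout macrophages with Ezh2 wild-type controls, and in untreated p53 knockout macrophages with p53 wild-type controls. Every group is 1 library, so nothing below has a replicate check and no p-value for a difference between conditions is given. Macrophages given LPS without nigericin were not analysed here, so priming and nigericin cannot be told apart. The labels do not say how the Ezh2 and p53 deletions were made or how many mice were pooled, and peak lists cannot check the deletions.

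A peak's fold is the authors' own value, the ratio of fragments at its summit to the local background, and it describes that peak within its list. The fragments at each summit were solved from the fold and the p-value of the peak. The weakest listed peaks rested on 9 fragments in both histone lists, 7 in both EZH2 lists, 6 for p53, and 3 or 4 for SIRT1. Both histone lists stop at a q-value of 0.05, whereas the EZH2, p53 and SIRT1 lists also hold weaker peaks, and at that q-value 761 of 5128 EZH2 peaks remained after LPS and nigericin, 1746 of 9771 in untreated cells, and 59 of 5068 for p53. For SIRT1, 524 of 18170 peaks remained in Ezh2 knockout, 249 of 74767 in Ezh2 wild-type, 323 of 59807 in p53 knockout and 180 of 56323 in p53 wild-type cells. H3K27ac lay at 8 of 8 macrophage marker genes (Spi1, Csf1r and Itgam highest, at 10.8-, 7.87- and 6.17-fold) and at 0 of 6 neutrophil marker genes. It also lay at 4 of 6 lymphocyte markers (among them Ms4a1 at 6.09-fold), 3 of 7 stromal and adipocyte markers and 1 of 4 erythroid markers, all counted in the same windows, which can take in neighbouring genes.

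Across the 9 genes the histone marks split. H3K27ac without H3K27me3 lay at 3 genes (Ppard, Pparg and Nr1h3). H3K27me3 without H3K27ac lay at 2 (Ppara and Ppargc1a), and both of these also had EZH2 peaks in untreated cells. Ppargc1b, Rxra and Esrra had both marks in their windows, but with H3K27me3 outside the gene, and Nr1h2 had neither. In all protein-coding genes, 25.7% had H3K27ac without H3K27me3, 15.9% had both, 31.6% had neither, and the rest had H3K27me3 without H3K27ac. Only part of that rest, 9.54% of all protein-coding genes, also had an EZH2 peak in untreated cells. A peak of H3K27ac was found at 6 of the 9 genes, against 41.6% of all protein-coding genes, and a peak of H3K27me3 at 5 of the 9, against 42.7%. The windows of the 9 were longer, with a median of 91.9 kb against 37.2 kb for all protein-coding genes, so the share with a peak is not on equal terms.

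**Figure D1:**
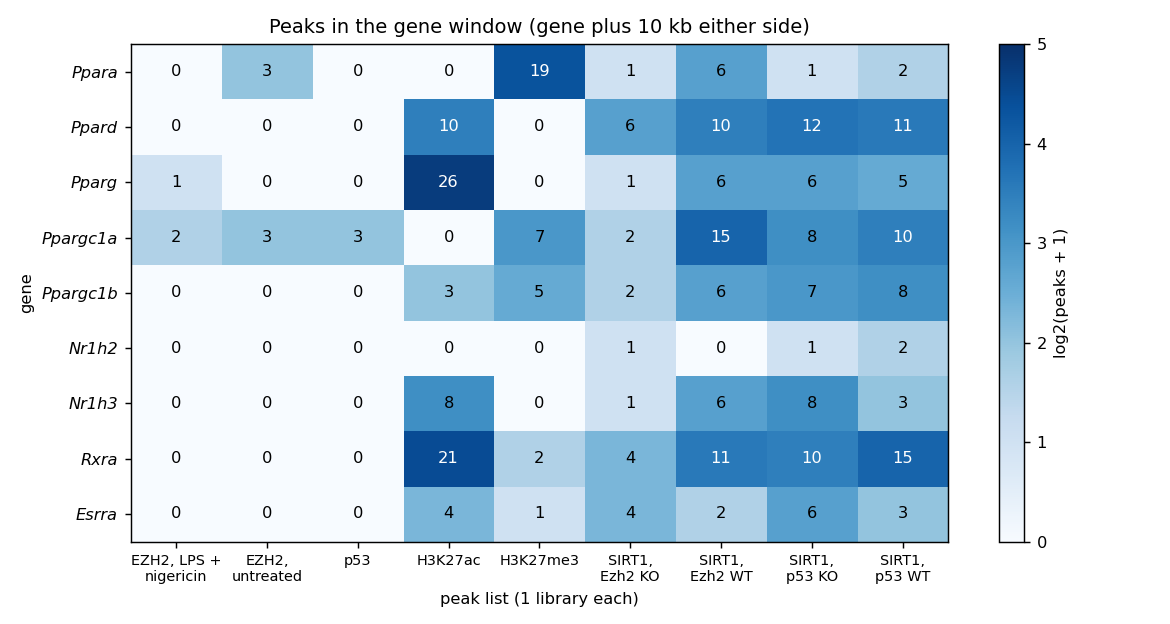
Number of peaks in the window of each gene (rows; the gene plus 10 kb on either side) in each of the 9 peak lists (columns, 1 library each); the printed number is the count and the shade is log2(count + 1). H3K27ac is highest at Pparg (26 peaks) and Rxra (21), H3K27me3 at Ppara (19), and EZH2 and p53 are at 0 in most rows.

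Promoter sequences of 6 starts, from RefSeq on GRCm38.p6, are shown because the marks divided along them. They include the start under H3K27me3 (Ppara) and the only listed start of Ppargc1a. That Ppargc1a start lies inside the gene bounds, far from any peak of either histone mark. Next come an acetylated and an unmarked start of the same gene (Pparg), and the start beside the acetylated peak with the highest fold of the set (Rxra). The last is that of Nr1h2, the gene with no histone peak in its window. Each sequence is the 250 bases upstream of the start, 5′ to 3′ on the strand of the gene, with every CG dinucleotide in capitals. They lie at chr15:85735526-85735775 (plus strand), chr5:51567726-51567975 (minus), chr6:115360894-115361143 (plus), chr6:115421816-115422065 (plus), chr2:27676951-27677200 (plus) and chr7:44553966-44554215 (minus).
Ppara: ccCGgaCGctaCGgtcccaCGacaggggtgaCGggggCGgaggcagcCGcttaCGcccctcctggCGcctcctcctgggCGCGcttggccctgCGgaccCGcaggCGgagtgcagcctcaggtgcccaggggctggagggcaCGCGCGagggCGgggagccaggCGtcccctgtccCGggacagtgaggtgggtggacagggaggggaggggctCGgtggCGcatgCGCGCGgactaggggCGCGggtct
Ppargc1a: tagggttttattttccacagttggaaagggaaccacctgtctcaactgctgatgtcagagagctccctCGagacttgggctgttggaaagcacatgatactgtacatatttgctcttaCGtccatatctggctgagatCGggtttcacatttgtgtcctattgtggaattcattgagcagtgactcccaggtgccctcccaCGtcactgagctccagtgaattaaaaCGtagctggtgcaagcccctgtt
Pparg, first start: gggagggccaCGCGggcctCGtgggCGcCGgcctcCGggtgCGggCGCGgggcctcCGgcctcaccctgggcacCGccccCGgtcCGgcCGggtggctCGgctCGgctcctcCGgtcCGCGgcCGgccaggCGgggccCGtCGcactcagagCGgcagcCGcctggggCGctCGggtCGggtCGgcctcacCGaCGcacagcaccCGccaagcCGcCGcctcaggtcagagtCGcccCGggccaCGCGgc
Pparg, adipocyte-type start: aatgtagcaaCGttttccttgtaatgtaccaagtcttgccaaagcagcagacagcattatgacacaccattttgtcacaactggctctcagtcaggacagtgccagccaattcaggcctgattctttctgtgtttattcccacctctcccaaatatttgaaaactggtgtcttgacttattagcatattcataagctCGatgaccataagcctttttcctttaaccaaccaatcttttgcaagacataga
Rxra, first start: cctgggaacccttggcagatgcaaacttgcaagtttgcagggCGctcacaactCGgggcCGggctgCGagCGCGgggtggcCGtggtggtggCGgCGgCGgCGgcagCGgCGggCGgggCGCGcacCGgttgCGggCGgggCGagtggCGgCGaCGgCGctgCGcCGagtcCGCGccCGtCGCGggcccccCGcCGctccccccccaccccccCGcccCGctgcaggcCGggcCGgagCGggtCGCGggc
Nr1h2: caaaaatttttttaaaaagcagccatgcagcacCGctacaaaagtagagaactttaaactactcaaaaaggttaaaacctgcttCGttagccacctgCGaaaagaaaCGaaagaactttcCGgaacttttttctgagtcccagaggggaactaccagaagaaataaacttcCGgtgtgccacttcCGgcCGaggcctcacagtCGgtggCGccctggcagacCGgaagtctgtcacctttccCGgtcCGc
CG dinucleotides numbered 27 at Ppara, 5 at Ppargc1a, 38 at the first Pparg start, 2 at the adipocyte-type Pparg start, 40 at the first Rxra start and 13 at Nr1h2. The median over 21262 mouse promoters of this length was 10, and 1.66% of them held at least as many as Rxra, 2.33% as many as Pparg and 11.0% as many as Ppara. The CG-rich starts therefore included an H3K27me3-covered promoter as well as acetylated ones. The letters AGGTCA, the repeat unit of the sites that PPARs and LXRs bind with an RXR, were searched on both strands. They occurred at 1 place each upstream of the first and middle Pparg starts and at 2 places upstream of the inner Rxra start, and at none of the other 9 starts of these genes. AGGTCA was present in 12.8% of all promoters of this length. TGACGT, the core of the sites bound by the cyclic AMP factor CREB, searched on both strands, occurred in the Ppargc1a window alone among the 12 starts, against 7.37% of all promoters. Its CG is also counted among the CG dinucleotides, and it shares no occurrence with AGGTCA.

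Starts were available for 8 of the 9 genes, 12 in all, as Ppargc1b was not matched in the promoter table. Within 1 kb of a start, H3K27ac was found at 4 of the 8 genes (Ppard, Pparg, Nr1h3 and Rxra), against 25.5% of the 17491 protein-coding genes with a listed start. H3K27me3 was found there at 1 of the 8 (Ppara), against 21.3%, and EZH2 in untreated cells at the same 1, against 6.41%. Neither EZH2 after LPS and nigericin nor p53 had a peak within 1 kb of any of the 12 starts. In all genes the shares were 3.66% and 0.372%, too low to weigh with 8 genes. For Ppargc1a these counts rest on its 1 listed start, inside the gene. The upstream end of that gene, which has H3K27me3 and EZH2 peaks, was not counted as a start.

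Ppara, the receptor best known for driving fatty acid oxidation in liver, was the gene of the set most covered by H3K27me3 peaks within its own bounds. The gene runs from 85734910 to 85806851 on chromosome 15. Its window held 19 H3K27me3 peaks, 11 of them overlapping the gene, that covered 19.5% of it, against 6.41% of all protein-coding windows. The strongest, of 5958 bp, spanned the start (chr15:85731884-85737841) at 8.15-fold with 32 fragments and a −log10 q of 18.98. The other peaks ranged from 2.47- to 5.19-fold, and the 3 farthest from the start lay beyond the 3′ end, toward Pkdrej. No H3K27ac peak lay in the window, and the nearest was 75.4 kb upstream of the start. In untreated cells, EZH2 had 2 peaks under that same H3K27me3 peak, each with 18 fragments at the summit (95% interval 10.7 to 28.4): 1 lay 0.2 kb upstream of the start at 2.39-fold, the other 0.15 kb downstream at 2.62-fold. Their −log10 q values of 0.592 and 1.05 were both short of the 0.05 limit. A further EZH2 peak with 8 fragments lay 29.1 kb downstream, outside H3K27me3. The LPS and nigericin list had no EZH2 peak in the window, and its nearest was 152 kb upstream.

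Ppargc1a, whose product drives mitochondrial biogenesis, has the longest gene of the set (51454249 to 52115853 on chromosome 5, minus strand). The only start in the promoter table, at 51567725, lies inside the gene bounds. It was 499 kb from the nearest H3K27me3 peak and 622 kb from the nearest H3K27ac peak, both upstream. All 7 H3K27me3 peaks of the window lay near its upstream end, between 499 and 550 kb from that start, at 2.14- to 5.92-fold. The strongest (chr5:52112354-52115443) had 29 fragments and a −log10 q of 13.1. It lies just inside the upstream bound of the gene (52115853), where the promoter table lists no start. EZH2 lay on this same stretch in both conditions. After LPS and nigericin the peak spanned 419 bp, with 21 fragments at the summit (95% interval 13.0 to 32.1) over a local background of 9.90, a 2.02-fold value with a −log10 q of 0. In untreated cells it spanned 1859 bp, with 30 fragments (20.2 to 42.8) over a background of 7.63, a 3.59-fold value with a −log10 q of 5.50. The intervals of the summit fragments overlap, and the depth of each library is unknown. That untreated peak was the only EZH2 peak of either list at these 9 genes with a q-value under 0.05. The 3 weaker EZH2 peaks inside the gene rested on 7 to 10 fragments, 1 after LPS and nigericin and 2 in untreated cells, and none of them overlapped between the lists.

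**Figure D2:**
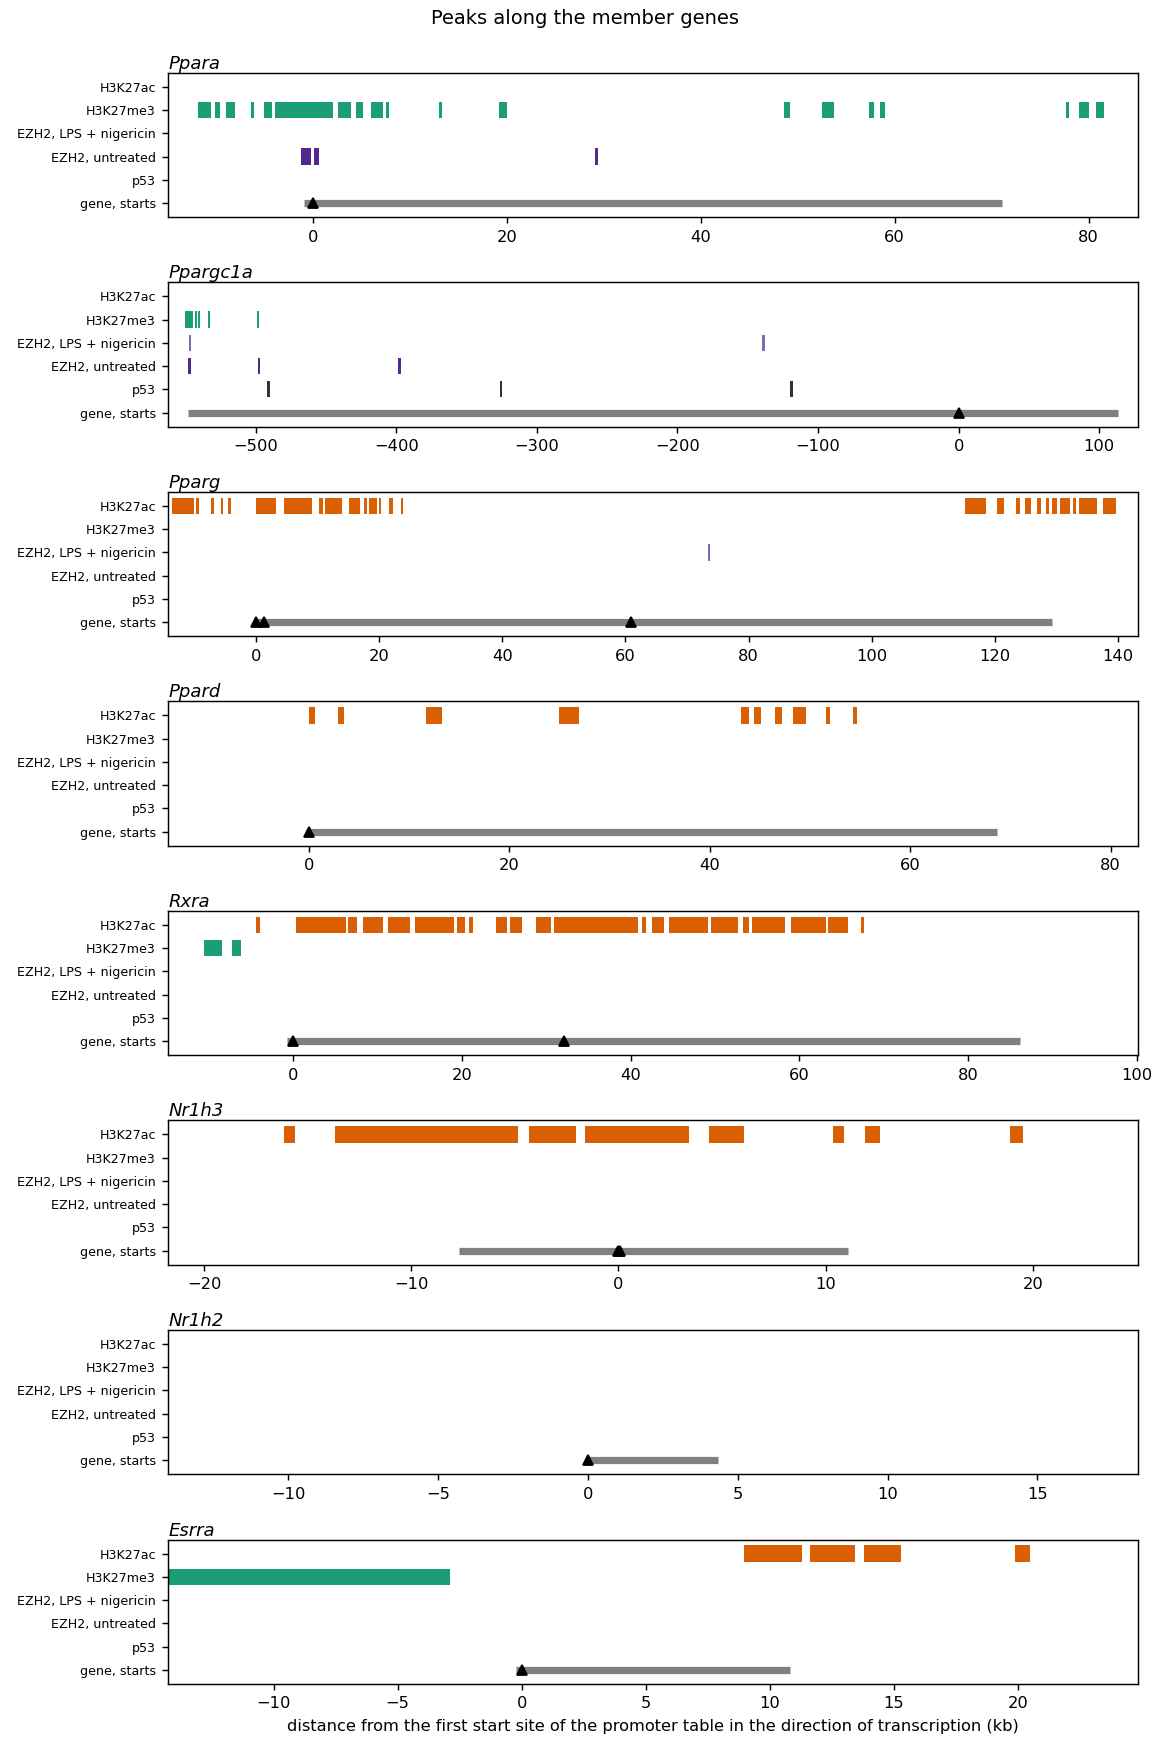
Peaks of H3K27ac, H3K27me3, EZH2 (LPS and nigericin, then untreated) and p53 along 8 of the genes; the x axis is the distance in kb from the first listed start in the direction of transcription, boxes are peaks, the grey bar is the gene and triangles are starts. H3K27me3 spans the Ppara start and the far upstream end of Ppargc1a, H3K27ac spans starts of Pparg, Rxra and Nr1h3, and Nr1h2 is empty.

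Over both EZH2 lists, peaks were found at 2 of the 9 genes after LPS and nigericin (Ppargc1a and Pparg), against 12.5% of all protein-coding genes, and at 2 of the 9 in untreated cells (Ppargc1a and Ppara), against 19.6%. Pparg had a peak in the LPS and nigericin list and none in the untreated list, a pattern seen in 4.34% of all genes. That peak, 12.4 kb downstream of the adipocyte-type start, rested on 7 fragments, the fewest that list holds, and its −log10 q was 0. Ppara had the opposite pattern, as did 11.4% of all genes. Of the 3 peaks after LPS and nigericin 1 overlapped an untreated peak, and of the 6 untreated peaks 1 overlapped a treated peak, whereas in all protein-coding windows 43.2% and 23.2% did. H3K27me3 lay under 1 of the 3 treated and 3 of the 6 untreated peaks, against 65.4% and 58.2% in all windows. With counts this small, a difference in EZH2 between the conditions was not detectable at these genes.

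p53 had 3 peaks, all inside Ppargc1a and all upstream of its listed start, by 119, 326 and 491 kb. They had 9, 6 and 8 fragments at 2.86-, 2.38- and 2.57-fold, each with a −log10 q of 0. Thus 1 of the 9 genes had a p53 peak, against 7.5% of all protein-coding genes, and it is the gene with the longest window. Of the 3, 0 overlapped EZH2 in untreated cells, against 5.65% of p53 peaks in all protein-coding windows, a share that 3 peaks cannot resolve.

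Pparg, which governs lipid storage and adipocyte differentiation, carried the most H3K27ac peaks of the set (26, of which 16 overlapped the gene at 115360879 to 115490404 on chromosome 6). They formed 2 blocks. The first ran from the upstream flank to a peak 23.5 kb downstream of the first start, and included a peak over both the first and the middle start (chr6:115361022-115364375) at 5.35-fold with 63 fragments and a −log10 q of 23.8. The second began 54.3 kb downstream of the adipocyte-type start and ran past the end of the gene, where the highest fold of the window, 7.33 with 28 fragments, was found at chr6:115498812-115500834. Between the blocks lay the adipocyte-type start, the CG-poor sequence printed above, 37.1 kb from the nearest acetylated peak upstream. No H3K27me3 peak lay in the window either. H3K27ac covered 22.1% of it, against 4.07% of all protein-coding windows.

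Ppard, the broadly expressed PPAR, had 10 H3K27ac peaks, all overlapping the gene (28232754 to 28301469 on chromosome 17), that covered 10.2% of the window. The first began 0.046 kb downstream of the start at 2.77-fold with 30 fragments. The stronger ones lay deep in the gene, at 5.73-fold with 24 fragments 48.3 kb from the start (chr17:28281068-28282367) and at 5.24-fold with 20 fragments 44.4 kb from it. The nearest H3K27me3 peak was 45.5 kb upstream.

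Rxra, the partner of both the PPARs and the LXRs, was acetylated along most of its length, short of the 3′ end. Its 21 H3K27ac peaks covered 50.3% of the window (gene at 27676445 to 27763319 on chromosome 2) and 20 of them overlapped the gene. The highest fold, 7.88 with 34 fragments, began 0.415 kb downstream of the first start. The widest, of 9985 bp (chr2:27708106-27718090), covered the inner start at 7.55-fold with 81 fragments and a −log10 q of 41.0. The last began 67.3 kb downstream of the first start. On the upstream side, 2 H3K27me3 peaks of 3.46- and 4.69-fold lay 8.42 and 6.21 kb before the start, and 1.86 kb separated them from the nearest acetylated peak.

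The 2 LXR genes differed. Nr1h3, the LXR of macrophages and liver, had 8 H3K27ac peaks that covered 52.1% of a 38.8 kb window (gene at 91184061 to 91202829 on chromosome 2). The peak over both of its starts (chr2:91191722-91196734) had 88 fragments at 4.55-fold and a −log10 q of 27.6, and the next one upstream had 55 fragments at 4.99-fold. A peak of 8828 bp further upstream reached the lysosomal phosphatase gene Acp2, and 2 at the other end lay in Madd, so not all of this acetylation can be assigned to Nr1h3. Nr1h2, the LXR found in most tissues, had no H3K27ac, H3K27me3, EZH2 or p53 peak in its 24.4 kb window (gene at 44549616 to 44553968 on chromosome 7). Its nearest H3K27ac peak was 198 kb upstream and its nearest H3K27me3 peak 27.3 kb downstream. A peak list does not separate absence of a mark from sequence to which reads cannot be assigned, and this was not tested.

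Esrra, the ERRα gene and a DNA-binding partner of PGC-1, lies among close neighbours at 6910977 to 6922048 on chromosome 19. Its 4 H3K27ac peaks, of 2.23- to 3.53-fold, sat at or beyond its 3′ end, 3 of them over Prdx5 or Trmt112, and 1 overlapped Esrra itself. The nearest was 8.95 kb from the start. Upstream, an H3K27me3 peak of 11724 bp (chr19:6924704-6936427) had the highest fold of that mark in the set, 11.2 with 48 fragments and a −log10 q of 34.1. It ended 2.90 kb before the Esrra start and covered Catsperz and Kcnk4. The start itself thus had neither mark within 1 kb. Ppargc1b, which also hosts Mir378a, had 3 H3K27ac peaks inside the gene, at 3.15- to 3.26-fold with 14 to 20 fragments, that covered 2.07% of its 129 kb window. Its 5 H3K27me3 peaks lay outside the gene, the strongest at 6.42-fold with 25 fragments, and 3.99 kb separated the closest peaks of the 2 marks.

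**Figure D3:**
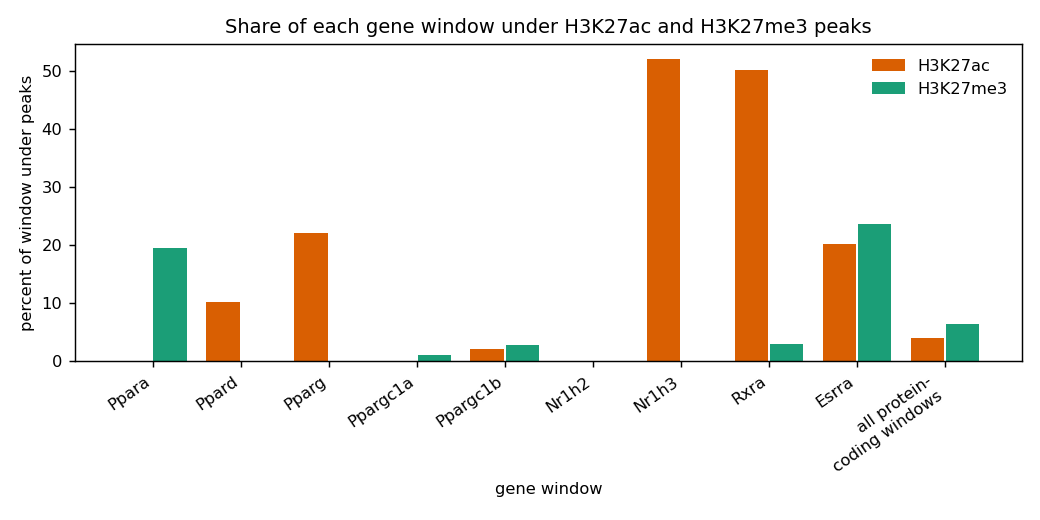
Percent of each gene window (the gene plus 10 kb on either side) lying under H3K27ac and under H3K27me3 peaks, with all protein-coding windows at the right. H3K27ac covers 52.1% at Nr1h3 and 50.3% at Rxra, H3K27me3 covers 23.6% at Esrra and 19.5% at Ppara, and both are at 0 at Nr1h2.

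Pooled over the 9 windows, which add up to 1.34 Mb, H3K27ac had 53.6 peaks per Mb (exact Poisson 95% interval 42.0 to 67.6), against 29.2 in all protein-coding windows. H3K27me3 had 25.3 (17.5 to 35.4), against 42.4. Ppargc1a makes up 50.8% of this length, and without it the values were 109 and 40.9 peaks per Mb. Of the 72 H3K27ac peaks, 26 lay at Pparg and 21 at Rxra, and of the 34 H3K27me3 peaks 19 lay at Ppara. Intervals here and below cover counting error only and treat neighbouring peaks of a gene as independent. None of the 72 H3K27ac peaks overlapped an H3K27me3 peak, with a Wilson 95% interval that reaches 5.07%. In all protein-coding windows 2.75% of the H3K27ac peaks did.

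SIRT1 peaks were many and weak. The 4 lists together held 202 in the 9 windows, with folds between 2.20 and 4.96 and a median of 2.76, on 3 to 8 fragments at the summit. All 9 genes had a peak in the Ezh2 knockout list, against 44.5% of all protein-coding genes, and 8 did in the Ezh2 wild-type list, against 76.4%. Again 9 had a peak in p53 knockout cells, against 71.8%, and 9 in p53 wild-type cells, against 70.9%. The median window of the 9 was longer, 91.9 kb against 37.2 kb, so these shares are not on equal terms either. Nr1h2, with the shortest window, was the gene without a peak in Ezh2 wild-type cells. It thus had a peak in the knockout list alone of that pair, as 3.82% of all genes did. None of the 9 had a peak in Ezh2 wild-type and none in knockout cells, as 35.8% of all genes did, and none was listed in p53 knockout cells alone or p53 wild-type cells alone, as 11.7% and 10.7% were.

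In the Ezh2 pair the 9 windows held 22 peaks in knockout cells and 62 in wild-type cells. Per Mb this was 16.4 (95% interval 10.3 to 24.8) in knockout and 46.2 (35.4 to 59.2) in wild-type cells, against 9.96 and 37.6 in all protein-coding windows of the same lists. Over the whole genome, too, the knockout list is the shorter, with 18170 peaks against 74767. In the p53 pair the windows held 59 peaks in knockout and 59 in wild-type cells, 44.0 per Mb (33.5 to 56.7) in each, against 31.6 and 29.6 in all windows. By gene, Ppard had 6 peaks in Ezh2 knockout, 10 in Ezh2 wild-type, 12 in p53 knockout and 11 in p53 wild-type cells. Rxra had 4, 11, 10 and 15 in the same lists, Nr1h3 had 1, 6, 8 and 3, and Esrra had 4, 2, 6 and 3. The coactivator gene Ppargc1b had 2, 6, 7 and 8, Pparg had 1, 6, 6 and 5, and Ppara had 1, 6, 1 and 2. Nr1h2 had 1, 0, 1 and 2, and Ppargc1a had 2, 15, 8 and 10. Ppargc1a, for its length, stood at low densities, of 2.93, 22.0, 11.7 and 14.7 peaks per Mb. The intervals for a single gene are wide, and those of knockout and wild-type cells overlapped for each gene in the p53 pair and for 8 of the 9 in the Ezh2 pair. The exception was Ppargc1a, with 0.355 to 10.6 peaks per Mb in Ezh2 knockout and 12.3 to 36.3 in Ezh2 wild-type cells, lists whose lengths differ throughout the genome.

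**Figure D4:**
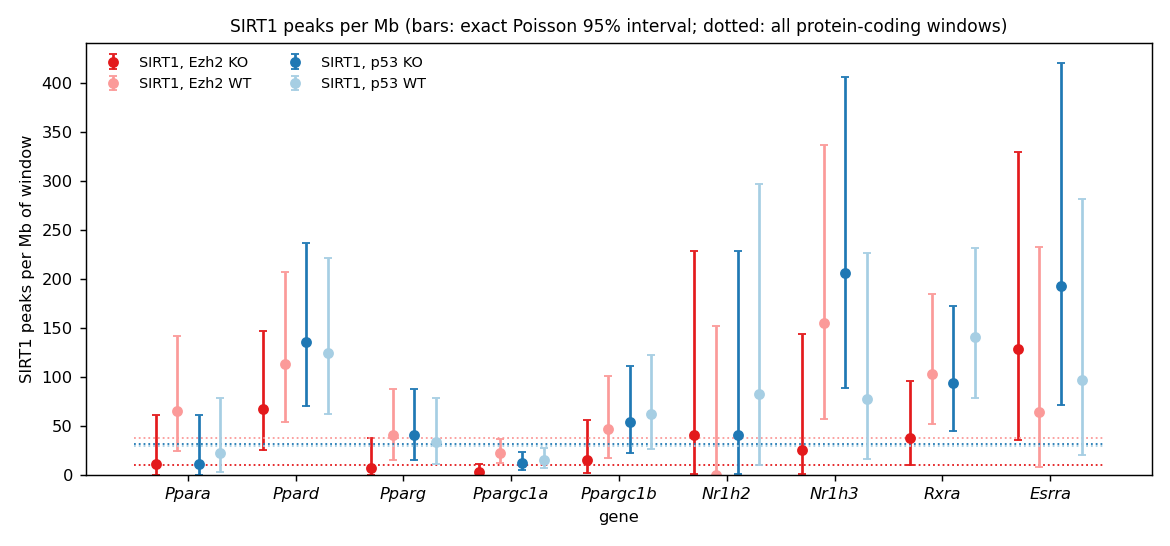
SIRT1 peaks per Mb of each gene window in Ezh2 knockout, Ezh2 wild-type, p53 knockout and p53 wild-type macrophages (1 library each; bars are exact Poisson 95% intervals, dotted lines are all protein-coding windows in the same colours). Ppargc1a lies low, at 2.93 to 22.0 per Mb, and the bars of the short genes Nr1h2, Nr1h3 and Esrra are wide.

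Few SIRT1 peaks recurred at the same place. Of the 22 in Ezh2 knockout cells, 2 overlapped a wild-type peak (9.09%, Wilson 95% interval 2.53 to 27.8), and of the 62 in wild-type cells 2 overlapped a knockout peak (3.23%). In all windows these shares were 8.16% and 2.15%. Between p53 knockout and p53 wild-type cells, 3 of 59 overlapped in either direction (5.08%), against 5.35% and 5.70% in all windows. The 2 wild-type lists shared 7 places, 11.3% of the Ezh2 wild-type peaks (5.58 to 21.5) and 11.9% of the p53 wild-type peaks, against 4.57% and 5.80% in all windows. An overlap of at least 50% of the shorter peak left 4 of these 7, and a q-value of at most 0.05 left 0. Over all 4 lists, 35 of the 202 peaks (17.3%) overlapped a peak of another SIRT1 list, against 12.3% in all protein-coding windows.

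Places where peaks of 3 lists overlapped one another were at Ppard and Rxra, and at Esrra an Ezh2 wild-type peak touched 2 others that were apart. In Ppard, 35.4 kb downstream of the start, the Ezh2 knockout peak (chr17:28268166-28268727) had 8 fragments at 4.85-fold and a −log10 q of 1.61. There the p53 knockout peak had 5 fragments at 3.31-fold and the p53 wild-type peak 6 at 4.07-fold, and Ezh2 wild-type cells had none. A p53 knockout peak in the same gene, under H3K27ac 12.7 kb from the start, had 8 fragments at 4.96-fold and a −log10 q of 1.86. These 2 peaks of Ppard were the only SIRT1 peaks among the 202 with a q-value under 0.05. In Rxra, under H3K27ac near chr2:27694239-27694613, the Ezh2 wild-type list had 7 fragments, the p53 knockout list 3 and the p53 wild-type list 4, and Ezh2 knockout cells had no peak. At Esrra the peaks lay at the start. They had 6 fragments 0.106 kb upstream of it in Ezh2 knockout cells, 6 fragments 0.217 kb upstream in Ezh2 wild-type cells and 3 fragments 0.61 kb upstream in p53 wild-type cells, whereas the nearest p53 knockout peak lay 2.27 kb downstream.

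Within 1 kb of a start, SIRT1 lay at 1 of the 8 genes with starts in Ezh2 knockout cells (Esrra), against 9.49% of all genes, and at 2 in Ezh2 wild-type cells (Esrra and Nr1h3), against 18.5%. It lay at none in p53 knockout cells, against 19.9%, and at 2 in p53 wild-type cells (Esrra and Pparg), against 19.7%. Acetylated sequence held 7 of the 22 SIRT1 peaks in Ezh2 knockout cells (31.8%, Wilson 95% interval 16.4 to 52.7) and 17 of the 62 in Ezh2 wild-type cells (27.4%, 17.9 to 39.6), against 17.4% and 11.8% in all windows. In the p53 pair it held 19 of 59 in knockout cells (32.2%, 21.7 to 44.9) and 14 of 59 in wild-type cells (23.7%, 14.7 to 36.0), against 15.0% and 14.2%. H3K27ac itself covered 9.32% of these windows, against 4.07% of all windows, and its part in those shares was not tested. H3K27me3 held 1 of the 22, 1 of the 62, 0 of the 59 and 1 of the 59, against 8.02% to 9.87% in all windows. This mark covered 2.98% of these windows, against 6.41% of all windows, and its part in those shares was likewise not tested. For the 0 of 59, in p53 knockout cells, the Wilson 95% interval reaches 6.11%.

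The marks at targets and partners of these regulators were counted in 5 fixed lists. Some genes of a list are neighbours, among them Abcg5 and Abcg8, Apoe and Apoc1, and Ucp2 and Ucp3. Their windows overlap, and a peak in the shared part was counted for each gene. Of 17 PPAR target and fatty acid oxidation genes, 14 had H3K27ac and 2 had H3K27me3. Plin2, a lipid droplet coat protein, was highest in H3K27ac at 8.64-fold, followed by Arg1, the arginase of alternatively activated macrophages, at 5.37-fold and Cpt1a, which admits fatty acids to mitochondria, at 5.24-fold. Pdk4 and Cpt1b were among those with no H3K27ac peak. H3K27me3 lay at Hadha (8.89-fold) and Angptl4 (3.79-fold). EZH2 peaks lay at Cd36 and Plin2 after LPS and nigericin, at 2.69-fold each, and at none of the 17 in untreated cells, against 12.5% and 19.6% of all protein-coding genes. These are 2 of 17 and 0 of 17 genes in lists of different length, and no gain after treatment can be read from them. Of 14 PGC-1 and ERR mitochondrial targets, 10 had H3K27ac (Sdhb highest at 5.87-fold, then Nrf1 at 4.74-fold) and 2 had H3K27me3 (Uqcrc1 and Nrf1). Tfam, Tfb1m, Tfb2m and Idh3a had no H3K27ac peak.

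Among 16 LXR targets, 8 had H3K27ac and 8 had H3K27me3. The cholesterol exporter gene Abcg1 had both, at 5.57-fold and 3.09-fold. In untreated cells EZH2 peaks lay at 2 of the 16, Mylip (2.41-fold) and Abcg1 (2.12-fold), against 19.6% of all protein-coding genes. After LPS and nigericin they lay at 0 of the 16, against 12.5%. The lists differ in length, 11.4% of all genes had peaks in the untreated list alone, and no loss can be read from this. H3K27ac reached 7.48-fold at the apolipoprotein gene Apoc1. H3K27me3 was highest at the lipogenic genes Scd1 (6.75-fold) and Acaca (5.26-fold) and at Mylip (4.94-fold), which encodes a ubiquitin ligase. All 15 coactivator and corepressor genes had H3K27ac, among them the acetyltransferase genes Kat2a (7.46-fold) and Ep300 (6.36-fold), and 3 had H3K27me3. Of 25 other nuclear receptor genes, 14 had H3K27ac and 18 had H3K27me3, H3K27me3 being highest at Nr4a2 (11.9-fold) and Nr4a3 (8.88-fold). Beside these stand the 41.6% and 42.7% of all protein-coding genes given above for H3K27ac and H3K27me3. SIRT1 peaks lay at 10 of the 17 PPAR targets in Ezh2 knockout and 17 in Ezh2 wild-type cells, against 44.5% and 76.4% of all genes, in lists of 18170 and 74767 peaks. They lay at 12 of the 17 in p53 knockout and 14 in p53 wild-type cells, against 71.8% and 70.9%.

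**Figure D5:**
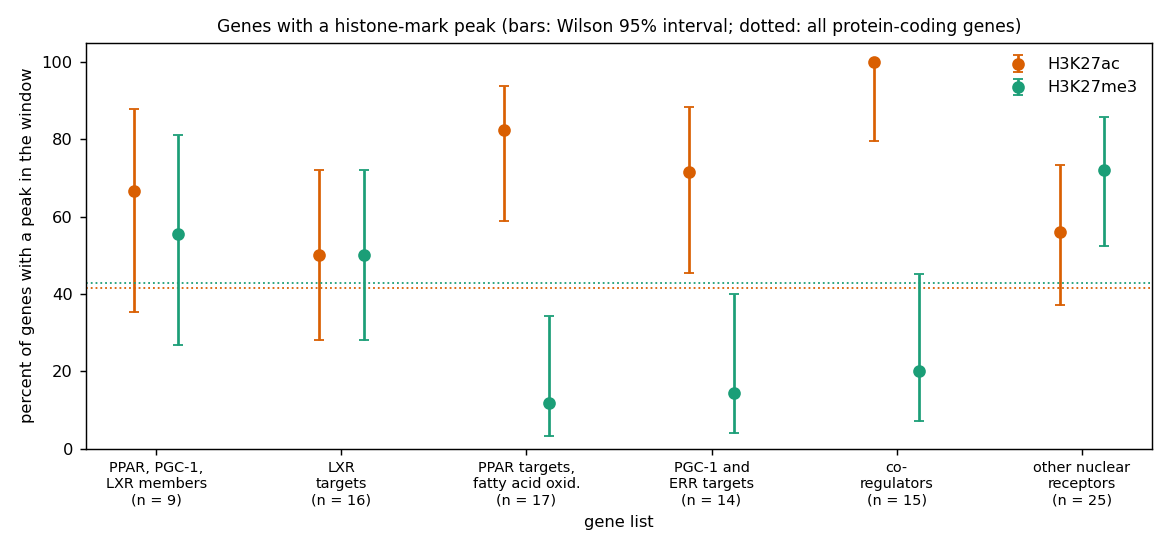
Percent of the genes of each list with an H3K27ac or H3K27me3 peak in the window, with Wilson 95% intervals; dotted lines are all protein-coding genes. The coactivators and corepressors stand at 15 of 15 for H3K27ac, and the other nuclear receptors at 18 of 25 for H3K27me3. The intervals treat genes with overlapping windows as independent.

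The genes of those 5 lists most like each regulator were found by the Euclidean distance between highest log2 folds over the 9 libraries, taken as 0 where there was no peak, among 87 candidates. Nr1h3 was closest to the glucocorticoid receptor gene Nr3c1 (distance 0.41), Ppard to Cpt1a (0.43), Pparg to Ncoa3 (0.53) and Ppargc1b to Rxrb (0.53). Esrra was closest to Rxrb (0.87) and Ppara to Esrrg (1.07). Nr1h2 and Ppargc1a had no near neighbour, with Cpt1b at 1.70 and Thrb at 2.10.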

How the data were processed

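The authors deposited 9 peak lists in narrowPeak layout, 1 per immunoprecipitated library, without pooling. MACS2, deepTools and the build GRCm38/mm10 are named in the submitters' processing notes. Not given in the sources used here are their versions, the aligner, the filters and the input paired with each library. The deposited fold is the ratio of summit fragments to local background, each with 1 added. The deposited −log10 columns hold each peak's p-value and q-value, and the deposited score is 10 times either of them. Total reads are not given, so depth is known only as fragments at a summit. These were solved per peak as the whole number that best fits the deposited fold and p-value under the caller's Poisson model. That number gave back the deposited −log10 p-value within 0.0001 for at least 99.96% of peaks of each list. The step was tested on simulated data whose fragments and backgrounds stopped short of the highest ones given here.

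Peaks on chromosomes 1 to 19, X and Y were assigned, with an overlap of at least 1 bp, to RefSeq gene bounds plus 10 kb. Positions are 1-based. The peak call's p-value and q-value are those of the authors' caller; with 1 library per group no test between groups was run. Intervals are exact Poisson for counts and Wilson for shares, both 95%. Other genes named are the 3 with the highest fold per list and library and the 2 nearest in pattern; Abcg1 under H3K27me3, Nrf1 under H3K27me3, and the genes named for having no peak were picked with their values in view. Some genes that this rule selects are left out of the text. The regulators and gene lists were chosen with earlier results of these data known. Python 3.11.15, pandas 2.3.3 and scipy 1.17.1 were used. Alternatives were the gene bounds alone, 5 kb flanks, a q-value of at most 0.05, the summit in the window, equal list lengths, a 50% overlap and all annotated genes. Distances to starts other than 1 kb and densities without Ppargc1a were added after seeing the data.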

Additional observations from a re-analysis of the deposited data

How the results depend on the processing

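Of 181 values under other settings, 149 stayed within the limit of 1.5 times the reported count or within the counting interval, and 32 moved. A q-value of at most 0.05 left 0 of the 9 genes with an EZH2 peak after LPS and nigericin, 1 in untreated cells and 0 with p53. For SIRT1 it left 1 gene in Ezh2 knockout, 0 in Ezh2 wild-type, 1 in p53 knockout and 0 in p53 wild-type cells. It also left 0 peaks shared between the EZH2 lists, within each SIRT1 knockout and wild-type pair and between both SIRT1 wild-type lists, and 1 untreated EZH2 peak on H3K27me3. The gene bounds alone left H3K27me3 at 2 genes, Ppara and Ppargc1a. Asking for 50% of the shorter peak left 1 peak shared by Ezh2 knockout and wild-type cells and 4 shared by the wild-type lists. A reach of 5 kb, chosen after seeing the data, put H3K27me3 near the starts of 2 genes. Without the Ppargc1a window, also chosen after seeing the data, densities per Mb became 0 for p53, 109 for H3K27ac, 40.9 for H3K27me3, 30.3 for SIRT1 in Ezh2 knockout, 71.2 in Ezh2 wild-type, 77.2 in p53 knockout and 74.2 in p53 wild-type cells. The cause was not tested, beyond the fewer peaks or the shorter length each setting leaves. Flanks of 5 kb, summits in the window, equal list lengths and all annotated genes kept every count of genes within 1.5 times. SIRT1 peaks of 3 fragments are at the limit of what these lists hold. No paired analysis was possible because each group is 1 library and no test was run.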
